A study of Homo sapiens with 4 samples.

Results

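The nucleotide synthesis enzymes studied here are 30 human genes of the pathways that make and balance the building blocks of RNA and DNA. They were chosen by name: each is a gene whose symbol on the array equals one on the list, read from its non-control probe with the highest mean log2 signal over the 4 arrays. All 30 of them, among 43317 gene names on the array, had a probe, and all 30 were marked as well above background on all 4 arrays. The label was not drawn from measured values, but the list was written with earlier results of these data known.

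The arrays measured total RNA of HCT116, an established colorectal cancer cell line kept in McCoy's 5A medium, and of A549, an established lung cancer cell line kept in DMEM. Each line was transfected with the microRNA miR-891b or with NC1, the negative control, by means of the reagent Dharmafect1, so that both groups of a line carried a transfected RNA. This gave 4 groups of 1 array each, an NC1 array and a miR-891b array for either line. The time between transfection and harvest and the amount transfected are not given in the sources used here, and each line stands for itself as a model of its tumour type. The series title concerns PSAT1, an enzyme of serine synthesis, and the release of extracellular vesicles from cancer cells.

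Cells make purines on a ribose phosphate scaffold, through a chain of steps that ends in inosine monophosphate (IMP), from which separate branches lead to AMP and GMP. Pyrimidines are built as a ring first, joined to the ribose phosphate to give UMP, and then turned into CTP. Ribonucleotide reductase converts ribonucleoside diphosphates into deoxyribonucleotides, the dNTPs of DNA synthesis, and thymidylate synthase supplies the thymidine nucleotide. Many of the enzymes of dNTP supply are known to be made chiefly around S phase, the part of the cell cycle in which DNA is copied, whereas much of the purine and pyrimidine pathway runs in growing cells throughout the cycle.

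The transfected microRNA is shown first because its seed, bases 2 to 8, is the part that pairs with target transcripts. The mature form is 22 bases long, is encoded on the minus strand at chrX:146001100-146001121 of GRCh38.p14 (RefSeq), and has its seed in capitals here.
hsa-miR-891b: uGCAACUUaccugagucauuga
The letters AAGTTGC, which pair with this seed, stood in 0 of the 39 array probes of the 30 enzymes, against 229 of all 58201 gene probes (0.393%). The shorter AGTTGC stood in 1 of these probes, that of IMPDH1, against 1.18% of all gene probes. The probes are 60 bases long and cover a small part of each transcript, so these counts say nothing of the rest of the transcripts, which were not searched.

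Upstream sequences are printed for 4 of the 5 enzymes of dNTP supply that were past 2-fold with miR-891b in A549, since these members were low together. The other, DCK, held no CCAAT and had its E2F word after the start, outside the printed stretch. RefSeq promoter windows, from 250 bases before a start site to 50 after it, matched 27 of the 30 members. The 250 bases before the start are printed 5′ to 3′ on the gene's strand. In capitals stand the letters CCAAT, the box bound by NF-Y, or TTTCCCGC, TTTCGCGC, TTTGCCGC and TTTGGCGC, words of the kind bound by E2F factors, on either strand. The windows are TYMS at chr18:657403-657652 (plus strand), RRM2 at chr2:10122489-10122738 (plus strand), TK1 at chr17:78187053-78187302 (minus strand) and DTYMK at chr2:241686816-241687065 (minus strand). RRM2 and TK1 have other RefSeq start sites, whose windows are not shown. Those windows held CCAAT at 1 place for RRM2 and at 0 for TK1, fewer than the windows printed.
TYMS: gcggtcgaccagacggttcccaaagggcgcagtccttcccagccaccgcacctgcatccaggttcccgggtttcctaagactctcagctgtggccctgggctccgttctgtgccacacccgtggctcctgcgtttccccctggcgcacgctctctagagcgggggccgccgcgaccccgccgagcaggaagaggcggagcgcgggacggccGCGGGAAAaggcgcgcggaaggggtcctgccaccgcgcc
RRM2: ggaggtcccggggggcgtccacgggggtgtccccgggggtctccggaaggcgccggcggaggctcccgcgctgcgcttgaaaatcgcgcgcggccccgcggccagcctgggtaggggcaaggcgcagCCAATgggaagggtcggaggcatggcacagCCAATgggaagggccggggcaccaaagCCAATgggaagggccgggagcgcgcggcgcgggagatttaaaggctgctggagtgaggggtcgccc
TK1: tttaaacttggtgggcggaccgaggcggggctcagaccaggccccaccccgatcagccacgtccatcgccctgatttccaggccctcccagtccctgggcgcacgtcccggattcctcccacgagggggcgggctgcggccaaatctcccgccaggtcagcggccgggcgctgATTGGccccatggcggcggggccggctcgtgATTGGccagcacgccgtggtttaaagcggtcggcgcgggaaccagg
DTYMK: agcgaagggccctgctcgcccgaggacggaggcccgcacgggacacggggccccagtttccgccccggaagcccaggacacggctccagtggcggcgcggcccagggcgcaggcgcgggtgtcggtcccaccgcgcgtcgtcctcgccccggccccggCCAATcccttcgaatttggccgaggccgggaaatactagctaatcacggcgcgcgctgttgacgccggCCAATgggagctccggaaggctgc
In the printed windows RRM2 held CCAAT at 3 places within 123 bases of its start, and TK1 and DTYMK each held it at 2. TYMS held no CCAAT but 1 of the E2F words. Among the 27 matched members, an E2F word stood in 5 (DCK, DUT, GART, PRPS2 and TYMS), against 3.99% of the 27305 genes of the table. CCAAT stood in 11 of the 27, against 39.7% of all genes. TTTGAA, the core of the element known as CHR, stood in 4, against 18.2%, and CACGTG, the E-box bound by MYC among other factors, in 6, against 8.77%. Of the 6 matched members past 2-fold in A549, 2 held an E2F word, 3 CCAAT, 0 TTTGAA and 1 CACGTG; among the other 21 members the counts were 3, 8, 4 and 5. A match describes these letters in these windows and is neither a site nor a cause.

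Signals are given as the log2 of the background-subtracted probe signal relative to the 75th percentile of its array, so that a difference of 1 between arrays is 2-fold. Levels are compared for the same probe between arrays and never between probes. With 1 array in each group there is no replicate spread and no test within a line; a difference was called by its size, at 2-fold or more. As a technical yardstick only, probes printed on several spots of an array gave a typical standard deviation of a within-line log2 difference of 0.061 in HCT116 (276 probes) and 0.071 in A549 (287 probes), which covers neither labelling nor culture. Each enzyme was read from 1 spot.

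On these arrays 44.7% to 50.3% of gene probes were well above background, none were saturated, and the 75th percentile lay at a signal of 54.9 to 74.8. The HCT116 arrays shared slide 1 and scan 1 and the A549 arrays slide 2 and scan 2, so that line and slide cannot be told apart. Of gene spots, 10.5% on the HCT116 miR-891b array lay in areas of stray signal, where at least 10% of the nearby probes that were dim on the other arrays read as well above background, against 0.0213% to 2.20% on the others; 6 of the enzymes lay in such an area on some array. Markers fitted the labels on the NC1 arrays. There all 6 markers of A549 were higher in A549 (ALDH1A1 at least 8348-fold). All 4 markers of HCT116 were lower in A549, by 3.13 to 6.75 on the log2 scale. On the miR-891b arrays the 4 A549 markers measured in both lines were also higher in A549, and all 4 HCT116 markers were lower. Some markers moved past 2-fold with miR-891b. AKR1B10, a marker of A549, changed by 4.47 in HCT116. In A549 its markers KRT81 and ALDH3A1 changed by -1.64 and -1.17, and CLDN3, a marker of HCT116, by 1.03.

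**Figure D1:**
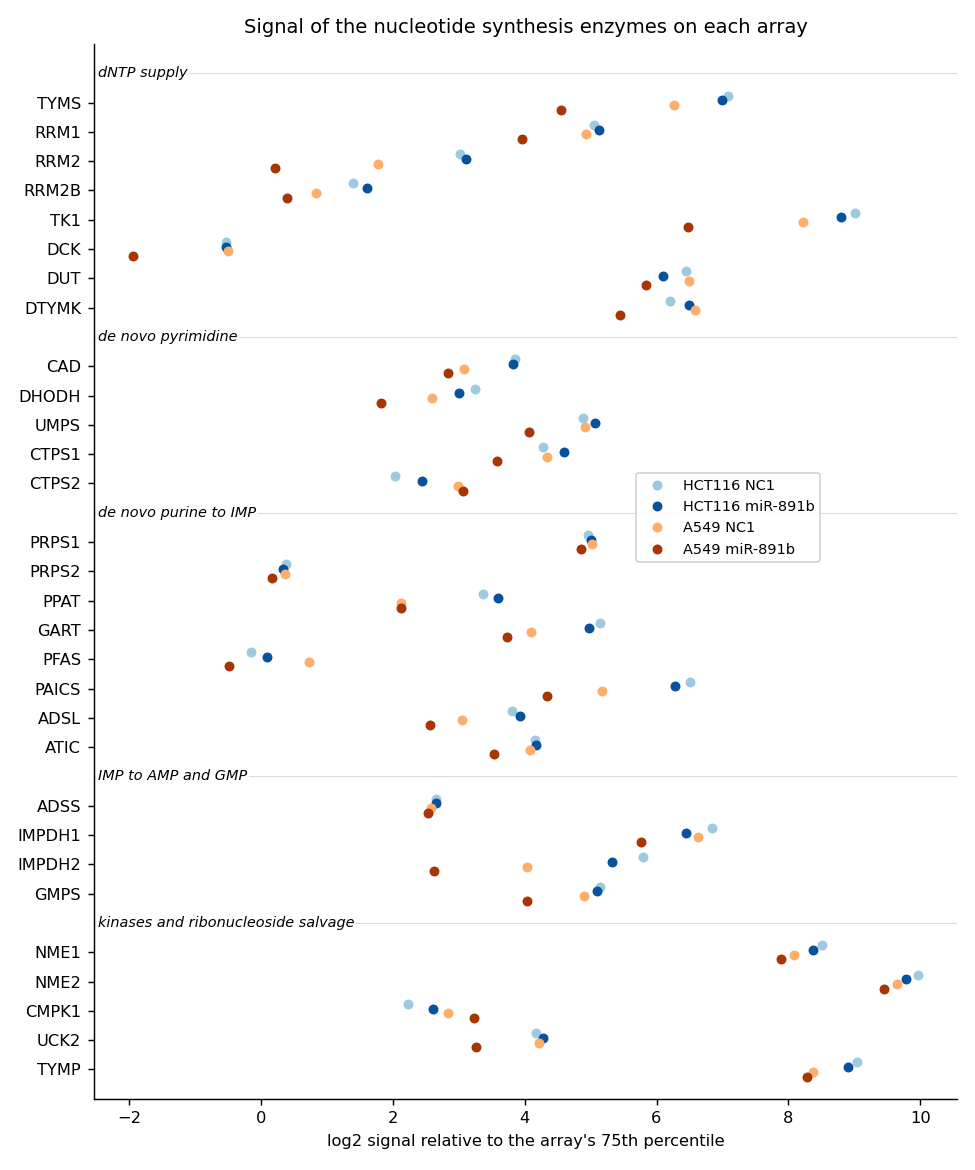
Signal of each of the 30 enzymes on each of the 4 arrays, as log2 relative to the array's 75th percentile, with 1 point per array and members grouped by role. For most members the dark orange point (A549 with miR-891b) lies farthest left; PPAT and ADSS show nearly coincident A549 points.

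In HCT116 the enzymes with miR-891b stayed near their levels with NC1. No member differed 2-fold in either direction, on a background of 0.843% of 19104 measured genes at least 2-fold lower and 1.16% at least 2-fold higher. The changes ran from -0.47 for IMPDH2 to 0.41 for CTPS2, with a median of -0.010, against -0.041 over all measured genes; 16 members lay below 0 and 14 above, or 11 and 19 with quantile normalization.

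In A549 the same transfection went with lower signal for most of the enzymes, and most of all for those that supply thymidine nucleotides and dNTPs. Of 30 members, 7 passed 2-fold on the lower side (TK1, TYMS, RRM2, DCK, IMPDH2, PFAS and DTYMK) and none was 2-fold higher, on a background of 5.57% of 21337 measured genes lower and 4.01% higher. The member changes had a median of -0.71, against -0.059 over all measured genes, and 27 of 30 lay below 0, against 55.6% of all measured genes. The count below 0 was 22 of 30 with quantile normalization, with and without the normexp background correction, because the small changes of several members changed sign there. Compared member by member, 28 of 30 had a lower value of miR-891b minus NC1 in A549 than in HCT116. The exceptions were CMPK1 and TYMP. For NME1, NME2 and ADSS the gap was small. With quantile normalization it turned the other way: NME1 gave 0.24 in A549 and 0.061 in HCT116, NME2 0.15 and 0.016, and ADSS 0.049 and 0.045. The second probe of CMPK1 gave -0.14 in A549 and 0.52 in HCT116. The share of all genes with a lower value in A549 was not counted. These counts rest on 1 array per group, and no test of the gap between the lines can be made within this design.

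**Figure D2:**
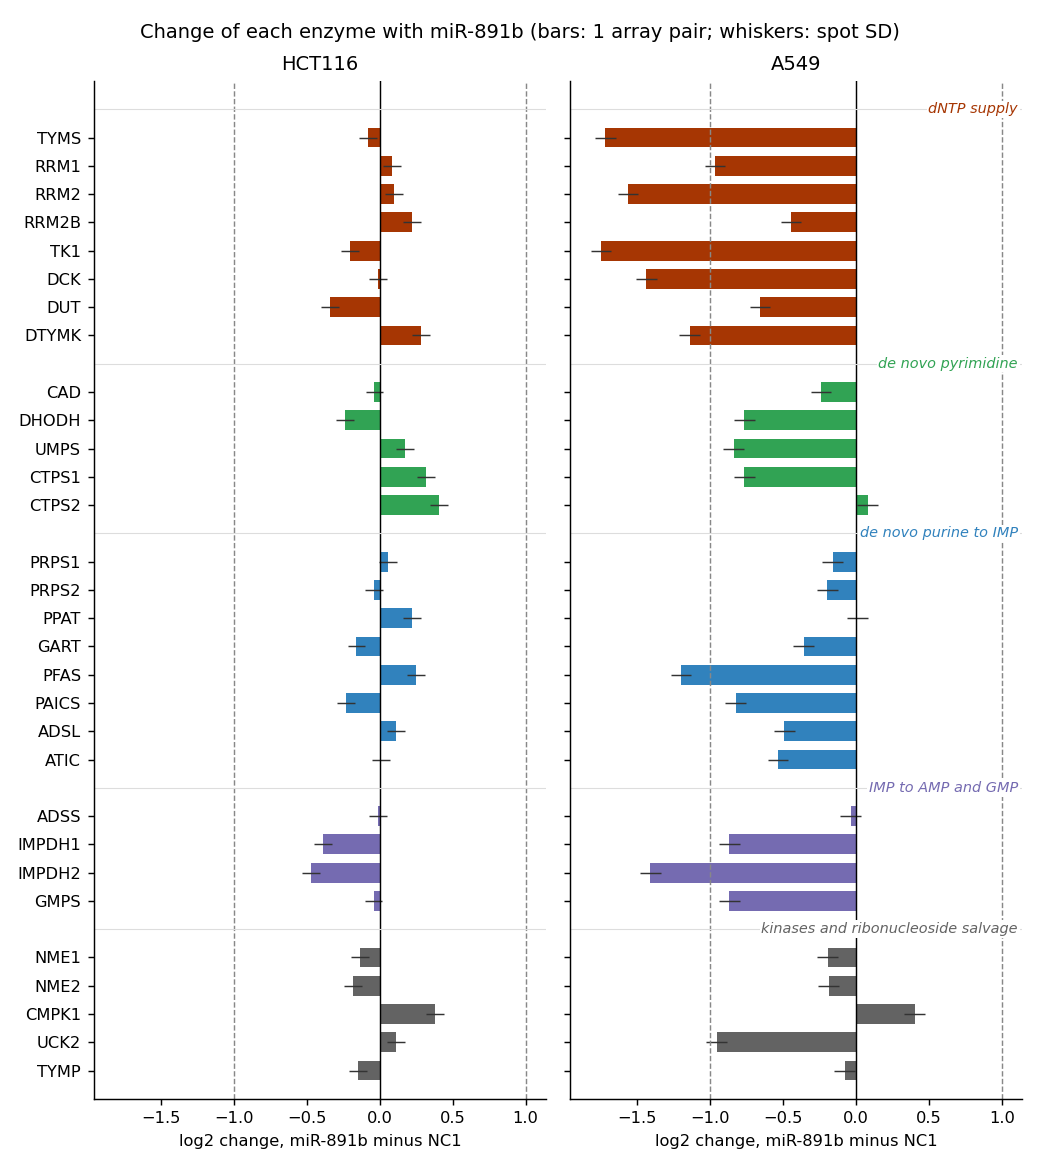
Log2 change, miR-891b minus NC1, of each of the 30 enzymes in HCT116 and in A549, by role, as bars with dashed 2-fold limits and whiskers for the spot standard deviation (0.061 and 0.071). All HCT116 values lie between -0.47 and 0.41; in A549 the 7 members past 2-fold all lie on the lower side, and 5 of these belong to dNTP supply.

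Across the roles, dNTP supply stood lowest in A549. The roles were drawn up with earlier results of these data known, so this order depends on the grouping and was not tested. All 8 members of dNTP supply lay below 0 in A549 and 5 were at least 2-fold lower, with a median change of -1.29. With normexp and quantile normalization 3 were past 2-fold. Over all 21337 measured genes 55.6% lay below 0 and 5.57% were at least 2-fold lower, with the main scaling. The 5 pyrimidine enzymes had a median of -0.77 and none past 2-fold. The 8 enzymes from ribose phosphate to IMP had a median of -0.43 and 1 past 2-fold, and the 4 of the branches from IMP a median of -0.87 and 1 past 2-fold. The 5 kinases and salvage enzymes listed apart from dNTP supply had a median of -0.19 and none past 2-fold. In bulk RNA, fewer cells making an enzyme and less of its RNA in each cell cannot be told apart.

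Thymidine kinase 1 (TK1), which phosphorylates thymidine taken up from outside and is a classic S-phase enzyme, had the lowest change with scaling to the 75th percentile. With quantile normalization TK1 (-1.44) lay above RRM2 (-1.57) and TYMS (-1.54), and with normexp added TK1 (-1.47) lay above TYMS (-1.64). Its log2 signal was 9.01 and 8.80 in HCT116 with NC1 and miR-891b, and 8.23 and 6.48 in A549 with NC1 and miR-891b. The A549 miR-891b array was the lowest, at 29.7% of the A549 NC1 signal (change -1.75), and the A549 NC1 array was itself 0.78 below HCT116 NC1. The HCT116 change was -0.21. The probe lies at chr17:76170193-76170252 on hg19, as do all probe positions given here.

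Thymidylate synthase (TYMS), which makes dTMP from dUMP and is the target of fluorouracil, had signals of 7.08 and 7.00 in HCT116 and of 6.27 and 4.55 in A549. The HCT116 arrays lay close together and the A549 miR-891b array was the lowest by far, 3.29-fold below A549 NC1 (change -1.72; probe at chr18:673276-673335). Thymidylate kinase (DTYMK), which carries dTMP to dTDP, had signals of 6.20 and 6.49 in HCT116 and of 6.58 and 5.44 in A549. Its A549 change of -1.14 was past 2-fold, but was -0.93 with quantile normalization and -0.98 with normexp and quantile normalization, just short of it. The HCT116 change of DTYMK was 0.29, on the other side of 0.

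The subunits of ribonucleotide reductase differed from each other. RRM2, the small subunit made in S phase, had signals of 3.02 and 3.12 in HCT116 and of 1.78 and 0.21 in A549, so that A549 with miR-891b was 2.96-fold below A549 NC1 (change -1.57; probe at chr2:10270487-10270546). RRM1, the large subunit, had signals of 5.05 and 5.13 in HCT116 and of 4.93 and 3.96 in A549. Its A549 change of -0.97 stopped just short of 2-fold. RRM2B, the small subunit known to be induced by p53 and used outside S phase, had signals of 1.39 and 1.61 in HCT116 and of 0.84 and 0.39 in A549. The RRM2B change was -0.45 in A549 and 0.22 in HCT116, and its second probe gave -0.46 and 0.39; the first lies in an area of stray signal. In A549 the RRM2 change was lower than that of RRM2B by 1.12 on the log2 scale, and in HCT116 by 0.13. With normexp and quantile normalization the A549 changes were -1.03 for RRM2, barely past 2-fold, and -0.24 for RRM2B, so they lay closer together.

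Deoxycytidine kinase (DCK), the salvage enzyme that also activates cytarabine and gemcitabine, gave signals below the 75th percentile on every array: -0.52 and -0.54 in HCT116, -0.50 and -1.94 in A549. The A549 miR-891b array was low and the other arrays lay close together (change -1.44; probe at chr4:71895933-71895992). After normexp correction with quantile normalization, which acts most on dim probes, the change was -0.49 and no longer past 2-fold. Deoxyuridine triphosphatase (DUT), which keeps uracil out of DNA and yields dUMP, had A549 signals of 6.50 and 5.84, a change of -0.66, and a change of -0.34 in HCT116; its second probe gave -0.56 and -0.49.

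Among the pyrimidine enzymes none passed 2-fold in A549, and 4 of 5 lay below 0. UMPS, which completes UMP, went from 4.91 to 4.07 (change -0.84), DHODH, the mitochondrial enzyme that oxidises dihydroorotate, from 2.60 to 1.83 (-0.77), and CAD, which carries out the opening steps, from 3.08 to 2.84 (-0.24). In HCT116 these enzymes gave 0.17, -0.24 and -0.04. The CTP synthases parted: CTPS1, with signals of 4.27 and 4.59 in HCT116 and of 4.34 and 3.58 in A549, had a change of -0.77 in A549 and 0.32 in HCT116, and CTPS2 one of 0.08 in A549 and 0.41 in HCT116. The second probe of CTPS1 gave -1.06 in A549 and that of CTPS2 -0.32, so the sign of CTPS2 in A549 depends on the probe. CTPS2 signals were 2.04 and 2.45 in HCT116 and 2.99 and 3.07 in A549, higher on both A549 arrays than on either HCT116 array.

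In the purine path, PFAS, which makes formylglycinamidine ribonucleotide, was the only enzyme before IMP past 2-fold. Its signals were -0.15 and 0.10 in HCT116 and 0.72 and -0.48 in A549, a change of -1.20 in A549 and 0.25 in HCT116 (probe at chr17:8173037-8173096). Its signal lay near the 75th percentile, and normexp with quantile normalization gave -0.65. PAICS, the bifunctional enzyme of the middle of the path, had signals of 6.51 and 6.28 in HCT116 and of 5.17 and 4.34 in A549, with a change of -0.83 in A549; it lies in an area of stray signal. ATIC, which closes the purine ring, had an A549 change of -0.54, ADSL one of -0.49 and GART, a trifunctional enzyme, one of -0.36. GART had signals of 5.14 and 4.98 in HCT116 and of 4.09 and 3.73 in A549, both lower than either HCT116 value. Other members, such as PAICS and PPAT, showed the same. The arrays of a line are not replicates, so this order is no measure of a line difference. The enzymes at the entry of the path barely differed: the PRPS1 and PRPS2 changes, for the synthetases of the ribose phosphate donor, were -0.16 and -0.20 in A549, and that of PPAT, the committed step, was 0.01. The PRPS1 value turned to 0.05 with quantile normalization.

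PPAT and PAICS are neighbours that are read in opposite directions from a shared stretch of chromosome 4, with RefSeq start sites 137 bases apart. The stretch is shown because the pair shares it and yet gave different values in A549, as 250 bases before the PPAT start at chr4:56435616-56435865 (minus strand), with the CACGTG letters in capitals.
PPAT: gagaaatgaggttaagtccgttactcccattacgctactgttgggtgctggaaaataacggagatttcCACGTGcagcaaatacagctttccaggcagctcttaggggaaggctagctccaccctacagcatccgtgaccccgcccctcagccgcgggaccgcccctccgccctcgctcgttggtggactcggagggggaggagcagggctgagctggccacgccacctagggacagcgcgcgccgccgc
PPAT had signals of 3.37 and 3.59 in HCT116 and of 2.12 and 2.13 in A549, and its change in A549 was 0.01 beside -0.83 for PAICS. Its second probe gave -0.16 in A549 and 0.28 in HCT116. In both lines PAICS had the lower change, by a smaller amount in HCT116, where the values were 0.22 for PPAT and -0.23 for PAICS. RefSeq lists other start sites for PAICS, and which of them these cells use was not measured.

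Of the enzymes that lead from IMP to the adenine and guanine nucleotides, IMPDH2 had the lowest change in both lines. IMPDH2, the main form of the rate-limiting enzyme of guanine nucleotide synthesis and a target of mycophenolic acid, had signals of 5.79 and 5.32 in HCT116 and of 4.03 and 2.62 in A549 (probe at chr3:49062129-49062188). Both A549 values lay below both HCT116 values, as for GART and other members. Within each line the miR-891b array was the lower: by 0.47 in HCT116, the lowest change of any member there, and by 1.41 in A549. IMPDH1, its paralog, had signals of 6.84 and 6.45 in HCT116 and of 6.63 and 5.76 in A549, with changes of -0.39 and -0.87. GMPS, the next step towards GMP, gave -0.04 in HCT116 and -0.87 in A549. ADSS, now named ADSS2, which starts the branch to AMP, gave 2.66, 2.65, 2.58 and 2.54 over the 4 arrays, and its changes of -0.01 and -0.04 were inside the spot spread.

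The kinases and salvage enzymes listed apart from dNTP supply (NME1, NME2, CMPK1, UCK2 and TYMP) held no member past 2-fold. The kinases TK1, DCK and DTYMK, which were past 2-fold in A549, were listed under dNTP supply, so this contrast depends on the grouping. NME1 and NME2, the nucleoside diphosphate kinases, had A549 changes of -0.19 each, and TYMP, thymidine phosphorylase, one of -0.08. With quantile normalization these values turned to 0.24, 0.15 and 0.36, so no direction can be given for them. The NME2 probe also matches the NME1-NME2 readthrough transcript. CMPK1, the UMP and CMP kinase, was higher with miR-891b in both lines, by 0.38 and 0.40, with signals of 2.23 and 2.61 in HCT116 and of 2.83 and 3.24 in A549; its probe lies in an area of stray signal on the HCT116 NC1 array and its second probe gave 0.52 in HCT116 and -0.14 in A549. UCK2, the uridine-cytidine kinase known to be high in tumours, stood apart from this group in A549, with signals of 4.22 and 3.26 (change -0.96) beside 4.17 and 4.28 in HCT116.

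**Figure D3:**
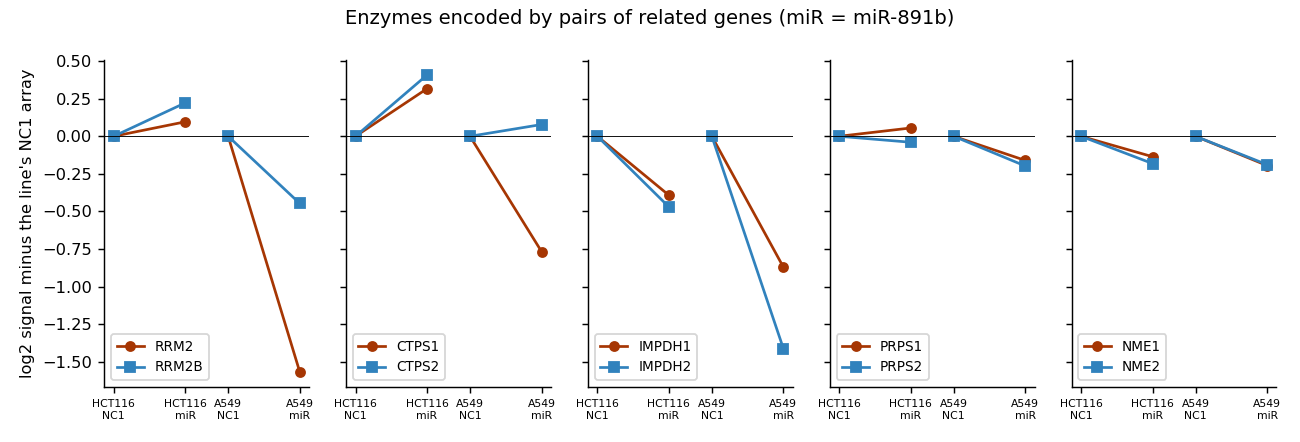
Log2 signal relative to the NC1 array of the same line, for 5 paralog pairs, with a line for each gene from NC1 (at 0) to miR-891b in HCT116 and in A549. In A549 the pairs RRM2 and RRM2B, CTPS1 and CTPS2, and IMPDH1 and IMPDH2 part by 1.12, 0.84 and 0.54, while PRPS1 and PRPS2 and NME1 and NME2 lie within 0.04; in HCT116 every pair lies within 0.13.

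Set beside the other genes of nucleotide metabolism, the synthesis enzymes had the lower median in A549. Of 49 further genes for salvage, transport, kinases, breakdown and pool control, 48 were measured in A549, with a median change of -0.13. Of these, 4 were at least 2-fold lower and 1 higher, on a background of 5.57% of 21337 measured genes lower and 4.01% higher. Such small counts lie near that background and say nothing particular of these genes as a group. The lower ones were NUDT1, which clears oxidised nucleotides (-1.87), AK1, an adenylate kinase (-1.52), PRPSAP1, an associated protein of the PRPS enzymes (-1.32), and SLC29A1, the equilibrative nucleoside transporter (-1.03). The higher one was CDA, cytidine deaminase (1.61). In HCT116 46 were measured and none was past 2-fold, on a background of 0.843% lower and 1.16% higher, with a median of -0.11.

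Markers of S phase and proliferation were low on the same array as the enzymes. With miR-891b all 16 listed markers passed 2-fold on the lower side in A549, from -2.40 (MCM2) to -1.23 (MCM3), with a median of -1.83. The background was 5.57% of 21337 measured genes. In HCT116 0 of 16 were past 2-fold, on a background of 0.843% lower and 1.16% higher, and the median was -0.072. The list was written with earlier results of these data known, so its counts are no independent support. Their summed signal in units of the 75th percentile was 616 and 590 in HCT116 and 448 and 147 in A549, and all 16 were well above background on every array. With normexp and quantile normalization 14 of the 16 were past 2-fold. Outside the areas of stray signal 12 markers were measured in A549, of which 10 were at least 2-fold lower, with a median of -1.58. Among the listed regulators, E2F1 (-2.09) and E2F2 (-1.44), activators of S-phase genes, were past 2-fold in A549, but both probes lie where the A549 array with miR-891b had stray signal. MYC, an activator of many purine genes, gave -0.09 in A549 and -0.11 in HCT116, and CDKN1A, the p53-induced inhibitor of cyclin-dependent kinases, -0.28 and 0.35. The part of the proliferation markers in the enzyme values was not tested.

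**Figure D4:**
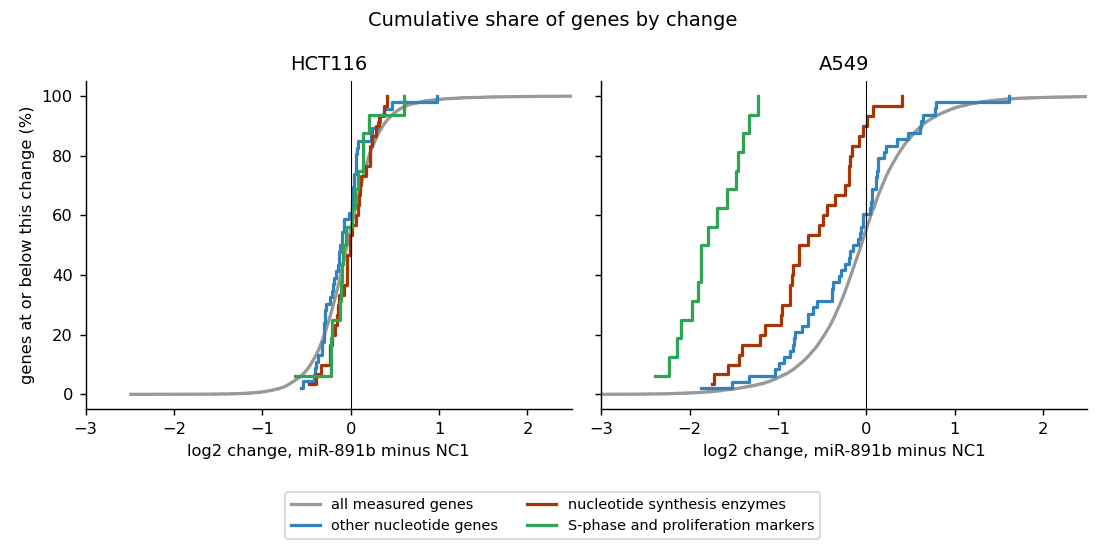
Cumulative share of genes (percent) against the log2 change, miR-891b minus NC1, in HCT116 and in A549, for all measured genes, the 30 enzymes, other nucleotide genes and the S-phase and proliferation markers. The curves lie together in HCT116; in A549 the enzymes (median -0.71) lie between the markers (median -1.83) and the other nucleotide genes (median -0.13).

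The lines were also compared with each other under NC1 alone. Between the NC1 arrays 5 enzymes were lower in A549 than in HCT116 by 2-fold or more and none was 2-fold higher, on a background of 16.2% of 19218 genes lower and 11.1% higher. These were IMPDH2 (-1.76), PAICS (-1.34), RRM2 (-1.24), PPAT (-1.24) and GART (-1.05), and 5 of 30 is close to that background. The median difference of the members was -0.22, against -0.10 over all genes. Below 0 lay 20 of 30 (16 of 30 with quantile normalization), against 55.0% of all measured genes with the main scaling. After normexp with quantile normalization IMPDH2 (-1.54) and PAICS (-1.09) were past 2-fold, and GART (-0.89), RRM2 (-0.95) and PPAT (-0.99) were not. CTPS2, at 0.96, was the highest member.

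On the miR-891b arrays the lines lay farther apart. There 16 of 30 enzymes were lower in A549 by 2-fold or more and none higher, on a background of 20.7% of 18576 genes lower and 11.4% higher. In all 28 of 30 lay below 0, or 22 of 30 with quantile normalization, against 58.5% of all measured genes with the main scaling. The median difference was -1.02 and the lowest was RRM2 at -2.90, followed by IMPDH2 at -2.70 and TYMS at -2.45. With normexp and quantile normalization the order was IMPDH2 (-2.37), TYMS (-2.16) and RRM2 (-2.09). The all-gene median of this difference was -0.20 and moved to -0.082 with quantile normalization and to -0.03 with normexp and quantile normalization. The 10 members at least 2-fold lower with quantile normalization and the 7 with normexp and quantile normalization were fewer than the 16. These differences hold the line, the slide and the response to transfection together, and the miR-891b arrays enter the A549 changes above.

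**Figure D5:**
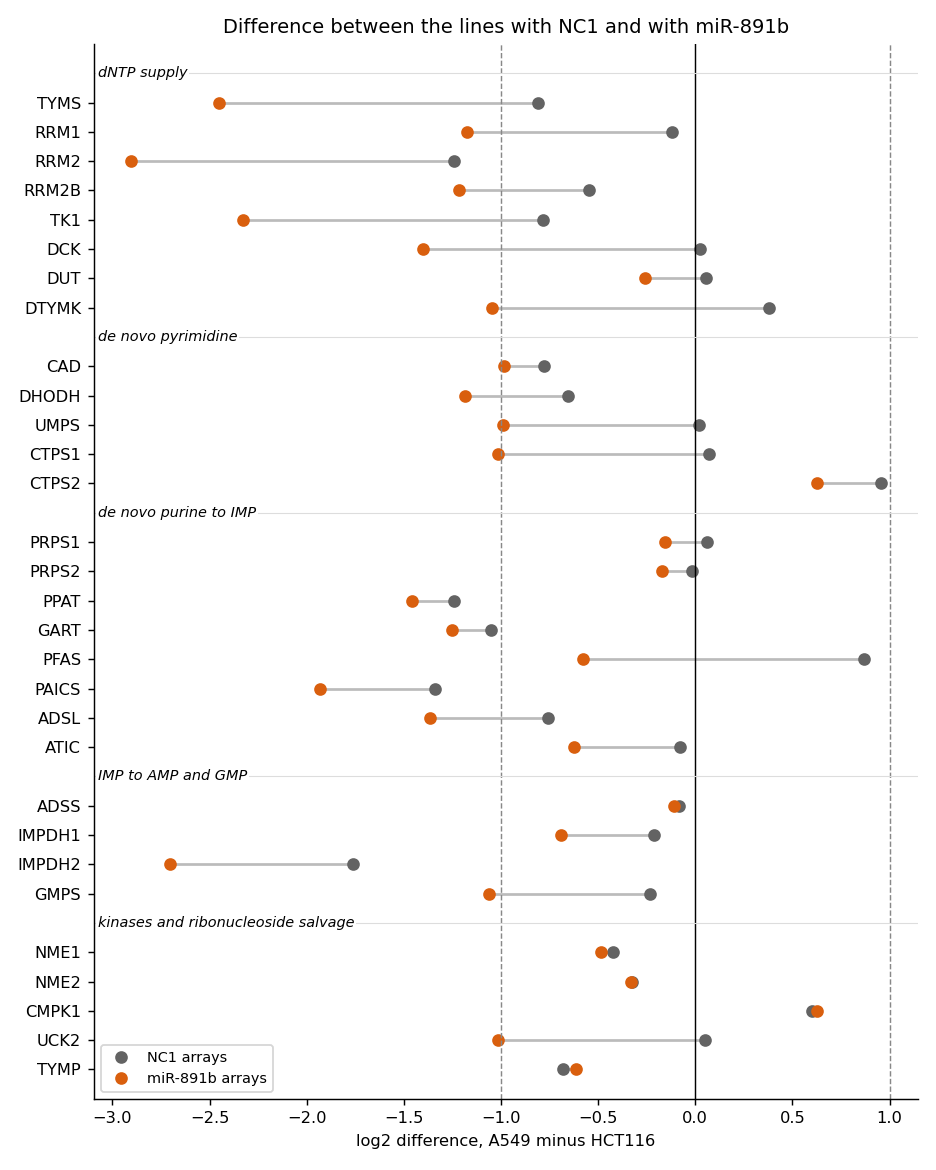
Log2 difference, A549 minus HCT116, of each enzyme on the NC1 arrays and on the miR-891b arrays, with the 2-fold limits marked. On the NC1 arrays 5 members lie past the lower limit and on the miR-891b arrays 16 do, and no member lies past the upper limit on either.

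An additive model of line and transfection over the 4 arrays, which has 1 residual degree of freedom, was the only test the design allows. In this limma fit over 22710 genes, 0 genes (0%) and 0 enzymes had a Benjamini-Hochberg adjusted p under 0.05 for miR-891b minus NC1. An unadjusted p under 0.05 was found for 1214 genes (5.35%). The only enzyme among these was IMPDH2, lower in both lines, with a mean change of -0.94 (SE 0.33) and a Benjamini-Hochberg adjusted p of 0.793 in limma. At 1 of 30 the enzymes do not stand above that share, and alternative settings gave 0 to 2 enzymes. The fit takes the response to be equal in the lines, so that a difference between them enters its error: TK1 had a mean change of -0.98 with an SE of 0.44 and an adjusted p of 0.793 in limma. For A549 minus HCT116, limma called 31.9% of the genes and 5 of the 30 enzymes, all lower in A549. These were IMPDH2 (-2.23, SE 0.33, adjusted p = 0.0134), PAICS (-1.64, SE 0.27, adjusted p = 0.0185), PPAT (-1.35, SE 0.24, adjusted p = 0.0210), GART (-1.15, SE 0.24, adjusted p = 0.0300) and RRM2 (-2.07, SE 0.47, adjusted p = 0.0375). At 5 of 30 the enzymes lie below that background, but alternative fits called 10 and 12 of 30, near theirs or above it, so the count says nothing particular of them as a group.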

How the data were processed

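Total RNA (100 ng, Cy3 label) of 4 samples was hybridised to Agilent 1-colour arrays, per the labels. Feature Extraction 11.5.1.1, named in the submitters' processing notes, gave the deposited intensity values, which are background-subtracted and carry no scaling across arrays. Per array, the authors' deposited log2 values lay close to the processed signal in log2 less its 75th percentile (median difference per array up to 0.0069, largest 0.109); how it was made is not stated in the sources used here. Its log2 values served as an alternative.

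Here spots marked as outliers were left out, replicate spots of a probe were averaged in log2, and each array's 75th percentile was subtracted. A gene counted as measured in a comparison where both arrays marked its probe as well above background. Samples were grouped by title, 1 array per group; a change was called at 2-fold and has no replicate check. The number of arrays limits the precision. The additive model used limma 3.58.1 (lmFit, eBayes) in R 4.3.3 with Benjamini-Hochberg adjustment, on genes well above background on at least 2 arrays. Its code was run on simulated data whose effects were equal in the lines. That run cannot show how the model behaves where the lines respond differently. A gene listed as not well above background on 1 array has a bound, as "at least N-fold": the mean of the bright group over the higher of the dim signal and the lowest well-above signal of that array. The labels give no replicate numbers, and p-values measure only the misfit of the additive model.

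The 30 members and the marker and comparison lists were chosen with earlier results of these data known. Named genes were the members, given in full where they passed 2-fold in a line or between the NC1 arrays or are paralogs of one that did, and listed genes past 2-fold. RefSeq sequences are of GRCh38.p14; probe positions are hg19, per the file headers. No exon or UTR annotation of hg19 was used here. Alternatives were quantile normalization with and without normexp (offset 50), scaling to the median, the authors' values, the mean over probes, other filters on dim probes, leaving out areas of stray signal, other fold limits and eBayes with a trend. The rest was done in Python 3.11.15 (pandas 2.3.3, numpy 2.4.6).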

Additional observations from a re-analysis of the deposited data

Results flagged for a closer look

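For 9 of the enzymes the change lay below 0 in A549 and above 0 in HCT116, each by more than the spread between spots. That spread is a technical yardstick from other probes. The share of all measured genes that pass the same cut was not counted, and the gap between the lines was not tested. The change in A549 minus the change in HCT116 was -1.66 for RRM2, -1.45 for PFAS, -1.43 for DTYMK, -1.08 for CTPS1, -1.07 for UCK2, -1.05 for RRM1, -1.01 for UMPS, -0.67 for RRM2B and -0.61 for ADSL. They include the reductase subunits, DTYMK, UCK2, and some enzymes of the pyrimidine path (UMPS and CTPS1) and of the purine path (PFAS and ADSL). The probes of RRM2B, UMPS and ADSL lie in areas of stray signal.

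Probes without a target were marked as well above background at 11 of 308 spots on the HCT116 miR-891b array and at 2 of 308 on the A549 miR-891b array, against 0 on either NC1 array.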

How the results depend on the processing

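The absence of any enzyme past 2-fold in HCT116 and of any 2-fold higher enzyme in A549 held under every alternative run. In A549 the median change of -0.71 was -0.42 with normexp and quantile normalization and -0.52 with quantile normalization, and the count of 7 at least 2-fold lower was 4 with the former; 16 enzymes were past a 1.5-fold limit and 2 past a 3-fold one. DCK (-0.49), PFAS (-0.65) and DTYMK (-0.98) lost the call with normexp and quantile normalization, and DTYMK (-0.93) with quantile normalization. Between the NC1 arrays the median of -0.22 was -0.0090, -0.013 and -0.14 with normexp and quantile normalization, quantile normalization and median scaling. Of the 5 enzymes lower in A549, 2 remained with normexp and quantile normalization; 11 were past 1.5-fold and 1 past 3-fold. Higher in A549 were 1 with quantile normalization, 1 with median scaling (CTPS2) and 3 at 1.5-fold. The limma fit called 10 enzymes of 30 for the line when restricted to genes above background on all 4 arrays (33.1% of all genes) and 12 with a trended prior (36.9% of all genes), against 5 (31.9%). The cause of these shifts was not tested. The labels give no replicate numbers; the additive fit, with the line as a term, already pairs the arrays by line and slide.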
